A study of Mus musculus with 12 samples.

Results

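The response to pressure overload that 2 genotypes of mice share was described in 12 of the 12 libraries of the series. Messenger RNA of the left ventricle apex was sequenced 8 weeks after TAC surgery, a narrowing of the aortic arch known as transverse aortic constriction, or after a sham operation. Each of 4 groups held 3 libraries: control mice after sham surgery, control mice after TAC, knockout mice after sham surgery and knockout mice after TAC. The knockout mice lacked lincRNA-p21, a long noncoding RNA whose gene is named Trp53cor1, in every cell of the body, and the control mice were littermates heterozygous for the same allele, so no group carried the gene on both chromosomes by its label. The labels name no strain, age or sex and do not say whether each library came from its own animal, so the p-values measure the spread between libraries. The 6 TAC libraries were compared with the 6 sham libraries with genotype as a covariate, and a change was read as shared where it passed that test and went the same way in each genotype. Levels are given as normalized reads, which are the reads of a gene divided by 1 scaling factor per library, and changes as log2(value + 1) after TAC minus sham, a scale that understates the change of low genes.

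A narrowed aorta makes the left ventricle eject against a higher pressure. Its muscle cells are known to enlarge, to return to genes of the fetal heart such as skeletal alpha-actin and the natriuretic peptides, and to turn down the enzymes that burn fatty acids. Fibroblasts in the wall lay down extracellular matrix, and proteins of the Z-disc, the anchor between neighbouring contractile units, act as sensors of stretch.

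Recovered reads numbered from 10323605 to 13238934 per library. Trp53cor1 had 2, 0 and 2 reads in control sham, 4, 0 and 3 in control TAC and 0 in all 6 knockout libraries, too few to check each library, since 0 reads were also found in 2 control libraries. All 12 ventricular cardiomyocyte markers were measured, and their sum was between 1033240 and 1324350 normalized reads, while 11 of 13 atrial markers passed the filter on low values and summed to 2242 to 6951. Mitochondrially encoded transcripts took 12.5% to 19.99% of reads, with no overlap between knockout sham (14.7% to 16.8%) and knockout TAC (19.1% to 19.99%). Of 13 such genes on a list, 5 (mt-Co2, mt-Atp8, mt-Atp6, mt-Co3 and mt-Nd4l) were at 0 in every library, so these shares leave them out. In a principal component analysis the first component, with 32.6% of the variance, placed the control TAC libraries at 34.4 to 59.8, the knockout TAC libraries at -8.48 to 2.46 and all 6 sham libraries at -31.5 to -15.8. On the second component control sham replicate 3 stood apart at 46.8, and knockout TAC replicate 3 lay at 15.6, against -22.9 and -33.7 for the other knockout TAC libraries.

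The genes that passed the test over both genotypes moved the same way in each, and most of them moved further in the controls. Among genes that rose were 11 of 24 on a stretch and Z-disc list, Acta1, Nppa, Edn3 and 18 of 47 on an extracellular matrix list, and among those that fell 13 of 40 genes of fatty acid oxidation, 2 potassium channel genes (Kcnip2 and Kcnh2), the kinases Sbk2 and Sbk3 and 5 of 9 markers of Schwann cells and neurons. Of 13916 genes tested by limma, 1196 passed an adjusted p of 0.05 over both genotypes (8.59% of all tested), 534 of them higher (3.84%) and 662 lower after TAC (4.76%). All 1196 had the same sign in each genotype, a count that the test itself largely fixes because a gene with opposite changes gives a small mean. A stricter description asked for no overlap, with all 3 TAC libraries above or all below all 3 sham libraries in each genotype. Of the genes that passed, 307 were higher (2.21% of all tested) and 363 lower (2.61%) without overlap in either genotype. Whether or not they passed, 3.15% of all genes were higher and 3.65% lower without overlap in both. Among the other genes that passed, 193 higher and 249 lower genes were without overlap in controls alone, and 31 and 46 in knockouts alone.

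The median change of the 534 higher genes was 0.89 in controls and 0.39 in knockouts, and that of the 662 lower genes was -0.74 and -0.31. Only 52 of the higher and 47 of the lower genes had the larger change in the knockouts. A change of at least 1.5-fold in each genotype was seen for 136 higher and 113 lower genes, and of at least 2-fold for 49 and 38. At the edge of the threshold, Col4a3bp (change 0.31, adjusted p = 0.0498) was just inside and Prr12 (-0.39, adjusted p = 0.0502) just outside.

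**Figure D1:**
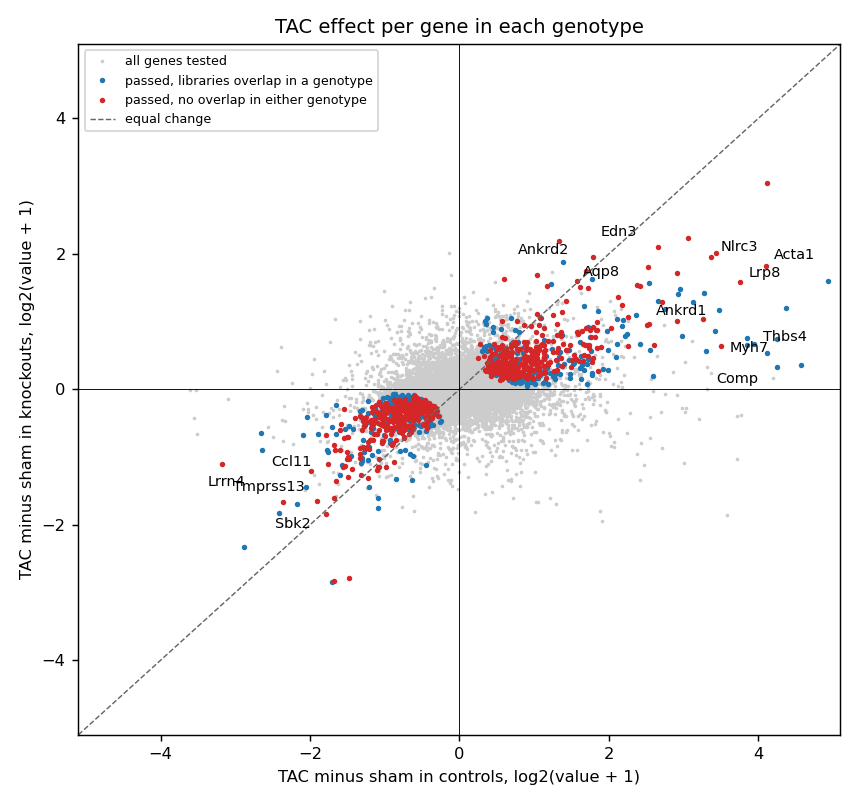
Change after TAC in controls (horizontal axis) and in knockouts (vertical axis), each as log2(value + 1) TAC minus sham, 1 point per gene tested. Red points passed the test over both genotypes without overlap in either (307 higher, 363 lower), blue points passed with overlap in at least 1 genotype, and most coloured points lie nearer the horizontal axis than the dashed line of equal change.

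The number that passed depended on single libraries, mostly those of controls. It was 356 without control TAC replicate 2, 496 without control TAC replicate 1, 511 without control TAC replicate 3, 458 without control sham replicate 2, 693 without control sham replicate 1 and 604 without knockout sham replicate 1. Changes also ran with transcript length and base composition. Across genes, which are not independent replicates, Spearman's rho of the change over both genotypes was 0.31 with length and -0.48 with GC content. For length it was 0.41 in controls and -0.01 in knockouts, and for GC content -0.44 in controls and -0.35 in knockouts. The median transcript of the genes that rose had 44.7% GC and that of the genes that fell 55.6%, against 49.7% for all genes tested. After each library was detrended for transcript length and GC content (detrended values hereafter), 691 genes passed, 281 higher (2.02%) and 410 lower (2.95%), and 515 of the 1196 were among them. The part of library composition in the changes was not tested beyond this.

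To compare the genotypes without a shared library, each was also fitted on its own 6 libraries. In controls alone 1433 genes passed (10.3%), 751 higher and 682 lower. Of the 751, 548 (73.0%) were also higher in knockouts, where 49.1% of all genes were, and 170 (22.6%) were without overlap there, against 8.31% of all genes. Of the 682, 619 (90.8%) were also lower in knockouts, against 50.9% of all genes, and 208 (30.5%) without overlap, against 8.87%. Their median changes in knockouts were 0.14 and -0.18, against 0.95 and -0.76 in the controls that chose them. Agreement in sign depended on single libraries. Without knockout TAC replicate 3 it was 63.4% for the 751 (49.5% of all genes) and 72.4% for the 682 (50.5%). In that fit 32.8% of the 751 (19.7% of all genes) and 38.9% of the 682 (21.2%) were without overlap in knockouts.

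In knockouts alone 32 genes passed (0.23%), 16 in each direction. All 16 that rose were higher in controls, against 50.5% of all genes, and all 16 that fell were lower, against 49.5%. The medians were 2.08 and -1.31 in controls against 0.95 and -0.93 in knockouts. Among them were Nlrc3, Edn3, Aqp8, Mybpc2, Xirp2, Ankrd1, Nppa, Myh7, Adamtsl2, Dct, Sbk2, Adra1b, Scara5, Ccl11, Inmt and Phkg1. Without control TAC replicate 2 the count for controls was 132, without control sham replicate 2 it was 203, without control TAC replicates 1 or 3 it was 303 or 646, and without knockout TAC replicate 3 the count for knockouts was 1331. The counts for knockouts without the other 5 libraries were 1 to 18. Of the 1331 genes, 585 were higher and 746 lower after TAC. In controls 73.8% of the 585 were higher and 69.4% of the 746 lower, against 50.5% and 49.5% of all genes. The TAC effect within each genotype was also tested in the fit of 4 group means to all 12 libraries. By that test 3006 genes passed in controls and 1 in knockouts.

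The genes that moved most in both genotypes were ordered by the smaller of their 2 changes. The highest was Edn3, which encodes endothelin 3, a peptide that acts on endothelin receptors (chr2:174760619-174784042, forward strand, GRCm38). Its normalized reads were 29.8, 37.03 and 23.7 in control sham, 116, 297 and 212 in control TAC, 36.6, 40.1 and 19.9 in knockout sham and 145, 193 and 90.5 in knockout TAC libraries. All 6 TAC libraries lay above all 6 sham libraries. The change over both genotypes was 2.39 (SE 0.25, adjusted p = 0.000312), with 2.66 in controls and 2.11 in knockouts. The difference between the genotypes was -0.56 (95% interval -1.62 to 0.51) and did not pass (adjusted p = 0.619).

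Nlrc3, an intracellular receptor known to dampen innate immune signalling (chr16:3945007-3976632), had the smallest adjusted p among the genes described here. Normalized reads were 24.5, 39.9 and 27.98 in control sham, 257, 411 and 315 in control TAC, 25.4, 23.7 and 26.2 in knockout sham and 116, 83.2 and 106 in knockout TAC libraries. Its 6 TAC libraries were all above its 6 sham libraries, and the knockout TAC libraries all below those of control TAC. The change was 2.67 (SE 0.24, adjusted p = 3.10e-05), with 3.37 in controls and 1.96 in knockouts. Their difference of -1.41 (95% interval -2.11 to -0.71) had an adjusted p of 0.0751.

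Aqp8, a water channel of the cell membrane (chr7:123462291-123468004), was at 34.1, 67.4 and 46.6 in control sham, 249, 416 and 153 in control TAC, 42.7, 58.4 and 72.4 in knockout sham and 207, 183 and 123 in knockout TAC libraries. Again all TAC libraries exceeded all sham libraries, and the change was 1.96 (SE 0.25, adjusted p = 0.00206). Lrp8, a receptor for reelin and apolipoprotein E (chr4:107802261-107876840), stood at 7.46, 5.70 and 5.09 in control sham, 85.4, 108 and 88.6 in control TAC, 8.14, 2.74 and 7.24 in knockout sham and 24.1, 12.2 and 21.8 in knockout TAC libraries. The groups did not overlap in either genotype, at low levels that leave the sham values with few reads. The change of Lrp8 was 2.67 (SE 0.38, adjusted p = 0.00242), with 3.75 in controls and 1.58 in knockouts.

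Kcnc1, a fast voltage-gated potassium channel (chr7:46396497-46438704), and Ttc39a, a protein with tetratricopeptide repeats (chr4:109406623-109444745), changed by almost the same size in both genotypes. Kcnc1 was at 14.9, 22.8 and 19.5 in control sham, 81.1, 49.4 and 52.2 in control TAC, 5.09, 12.8 and 18.997 in knockout sham and 42.5, 37.7 and 21.8 in knockout TAC libraries. The change was 1.56 (SE 0.28, adjusted p = 0.00725), with 1.61 in controls and 1.51 in knockouts. Ttc39a rose by 1.08 (adjusted p = 0.0111), 1.04 in controls and 1.11 in knockouts. The difference was -0.10 (95% interval -1.33 to 1.13) for Kcnc1 and 0.07 (95% interval -0.87 to 1.00) for Ttc39a. These intervals still allow a difference that comes near the size of the change itself.

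The other genes of the 15 highest were Acta1, Nppa, Gdf15, Met, Dct, Gas2l3, Lrrc55, Shisa3 and Klhl34. Met, the receptor of hepatocyte growth factor, rose by 1.61 (adjusted p = 0.0122). Dct, a melanin-pathway enzyme, rose by 1.74 (adjusted p = 0.00906). Klhl34 rose by 1.66 and Gas2l3, which binds actin and microtubules, by 2.00 (adjusted p = 0.00241 and 0.0038). Shisa3 and Lrrc55 rose by 1.18 and 1.26 (adjusted p = 0.00671 and 0.0139). In order of the smaller change, Nppa with 1.01 was the last of the 15 and Ankrd1 with 0.97 the next. Of the 30 genes at both ends of the order 12 overlap another annotated gene, among them Acta1, Lrp8, Nppa, Sbk2 and Phkg1, and since the strand setting of the counting is not given here, reads of such pairs cannot be told apart.

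**Figure D2:**
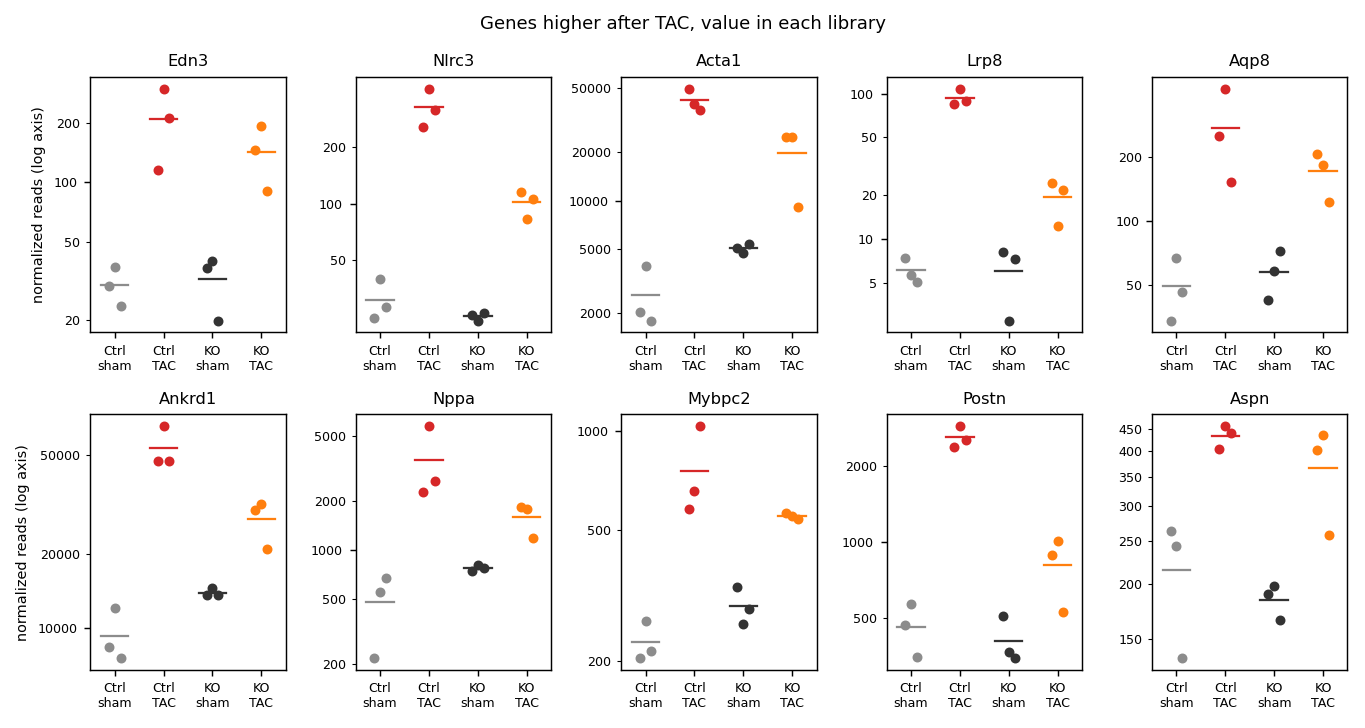
Normalized reads (log axis) of 10 genes that rose after TAC in control (Ctrl) and knockout (KO) mice, 1 point per library and a line at the mean of 3. In each of the 10 panels the TAC points lie above the sham points of the same genotype. In all panels but those of Postn and Aspn they lie above all 6 sham points.

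At the other end stood Sbk2, a kinase with an SH3-binding domain that is known from the atrium (chr7:4940512-4964406, reverse strand). Normalized reads were 152, 119.6 and 109 in control sham, 78.9, 19.6 and 28.9 in control TAC, 155, 152 and 119 in knockout sham and 27.04, 37.7 and 56.7 in knockout TAC libraries. All 6 TAC libraries were below all 6 sham libraries. The change was -1.81 (SE 0.27, adjusted p = 0.00322), with -1.79 in controls and -1.84 in knockouts, and the difference of -0.05 (95% interval -1.23 to 1.13) did not pass (adjusted p = 0.975). Its neighbour Sbk3, which begins just beyond its end (chr7:4965260-4971168), was at 40.5, 42.7 and 40.7 in control sham, 30.3, 15.5 and 5.59 in control TAC, 71.2, 44.7 and 58.8 in knockout sham and 33.8, 17.7 and 19.6 in knockout TAC libraries. Sbk3 fell by 1.39 on the log2 scale (SE 0.30, adjusted p = 0.0149), with -1.49 in controls and -1.29 in knockouts.

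Tmprss13, a membrane serine protease (chr9:45319100-45347581), was at 79.9, 34.2 and 41.5 in control sham, 25.95, 7.21 and 15.8 in control TAC, 55.95, 45.6 and 40.7 in knockout sham and 17.4, 18.9 and 9.82 in knockout TAC libraries. No TAC library reached a sham library, and the change was -1.64 (SE 0.29, adjusted p = 0.00673). Ccl11, the chemokine eotaxin that draws eosinophils (chr11:82057823-82062955), was at 99.1, 98.7 and 71.2 in control sham, 68.1, 11.3 and 26.1 in control TAC, 104, 86.7 and 77.8 in knockout sham and 36.7, 24.4 and 44.7 in knockout TAC libraries. Its change was -1.50 (SE 0.31, adjusted p = 0.0122). Hpdl and Adgrg6, an adhesion receptor that Schwann cells use to make myelin, changed by -1.07 and -1.11 (adjusted p = 0.00859 and 0.0203), and both had slightly larger changes in the knockouts.

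Opn4, the photopigment melanopsin, changed by -1.29 (adjusted p = 0.0173). Phkg1, the catalytic subunit of the kinase that switches on glycogen breakdown, changed by -1.26 (adjusted p = 0.0219). Ppl, a protein of cell junctions, changed by -1.05 (adjusted p = 0.0212). Inmt, a methyltransferase, changed by -1.25 (adjusted p = 0.0201, and 0.0511 after detrending). Rpl31-ps8 (-1.31, adjusted p = 0.0192) is a pseudogene of a ribosomal protein, so its reads may come from the parent gene. Osr1, a transcription factor, changed by -1.14 (adjusted p = 0.0306), and its call ended after detrending (0.0688) and without any of 5 libraries, control sham replicates 1 and 3, knockout sham replicate 1 and control TAC replicates 2 and 3. Gfra3, with -0.92 as its smaller change, was the last of the 15 lowest and Ptpru with -0.90 the next.

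**Figure D3:**
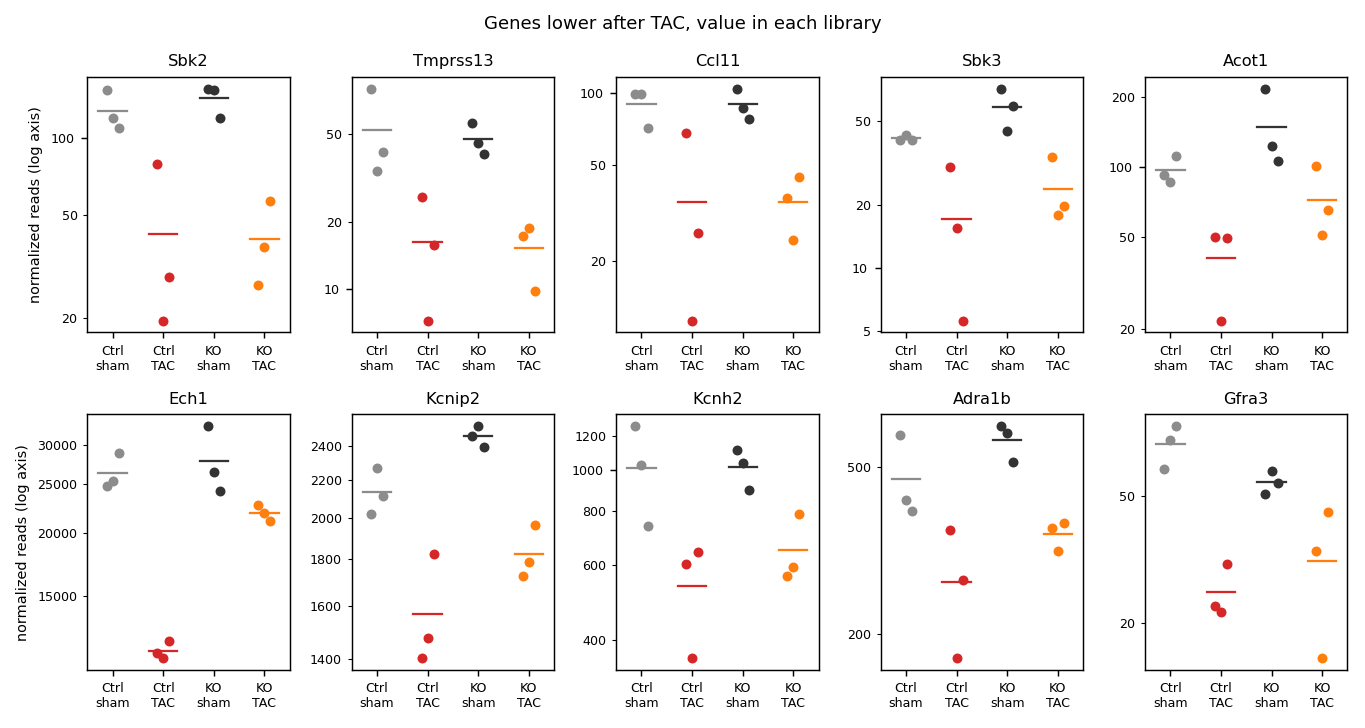
Normalized reads (log axis) of 10 genes that fell after TAC in control (Ctrl) and knockout (KO) mice, 1 point per library and a line at the mean of 3. In each of the 10 panels the TAC points lie below the sham points of the same genotype. In all panels but those of Acot1 and Kcnh2 they lie below all 6 sham points.

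Of 24 members of the stretch and Z-disc list that were tested 11 rose and 0 fell by limma (3.84% and 4.76% of all genes), 13 did not pass, and all 11 were without overlap in both genotypes, against 2.21% of all genes. With upper quartile scaling 10 of the 11 that rose were without overlap in both. Both changes were above 0 for 14 members and below 0 for 2, and 1 member fell by DESeq2, from 4 group means and without knockout sham replicate 3. The median change of the 24 was 0.43, with 0.63 in controls and 0.17 in knockouts, against 0.01 over all genes tested. Ankrd1, a cardiac ankyrin repeat protein that shuttles between the Z-disc and the nucleus (chr19:36111961-36120099), was at 8339, 12076 and 7553 in control sham, 47558, 65538 and 47204 in control TAC, 13625, 14512 and 13591 in knockout sham and 30110.3, 31786 and 20914 in knockout TAC libraries. The change was 1.75 (SE 0.25, adjusted p = 0.00444), with 2.53 in controls and 0.97 in knockouts, and the difference between the genotypes passed (-1.57, adjusted p = 0.0196). Xirp2, an actin-binding protein of the intercalated disc, changed by 1.64 (SE 0.32, adjusted p = 0.0155), with 2.61 in controls and 0.66 in knockouts.

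The related Ankrd2 was low and rose alike in both genotypes, from 2.13, 4.75 and 2.54 to 17.3, 14.4 and 8.39 normalized reads in controls and from 4.07, 3.65 and 0 to 12.6, 17.7 and 4.36 in knockouts. The gap between 4.07 and 4.36 was less than 1 read, which was worth 1.02 in that knockout sham and 1.09 in that knockout TAC library. The change of Ankrd2 was 1.87 (adjusted p = 0.0271), a call lost on leaving out control TAC replicate 1 or 2 or control sham replicate 1. Ankrd23, the third ankyrin protein of this family, rose by 1.17 (adjusted p = 0.00639). Enah and Nrap, which organise actin at the cell ends, rose by 1.01 and 0.74 (adjusted p = 0.00725 and 0.00993). Synpo2l, a Z-disc protein, rose by 1.11 (adjusted p = 0.0113). The other 4 were Fhl1, Nexn, Pdlim5 and the small heat shock protein Hspb7, with changes of 0.54, 0.50, 0.57 and 0.35 and adjusted p-values of 0.0223, 0.0318, 0.0481 and 0.0442. The Hspb7 call ended in every fit that left out a library except that without control sham replicate 3, the Pdlim5 call in all but those without control sham replicate 3 or knockout TAC replicate 3, the Fhl1 call without control sham replicate 2 or any control TAC library, and the Nexn call without these or knockout sham replicate 1. The count for the list was 6 without control TAC replicate 1 or 2, 7 without control TAC replicate 3 or control sham replicate 2, and 9 after detrending.

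The 250 bases before the RefSeq start sites of 5 genes that rose in both genotypes are shown because 2 motifs known from stretch and growth responses of muscle were searched there. They are the CATTCC motif, which TEAD factors bind, and the CArG box, which serum response factor binds, on both strands. The sequences are from RefSeq (GRCm38.p6), on the strand of the gene, and capitals mark a match, where GGAATG is the same motif on the other strand. The gene for Acta1 lies on the reverse strand (chr8:123894776-123895025), Ankrd1 on the reverse (chr19:36119845-36120094), Nppa on the forward (chr4:148000472-148000721), Edn3 on the forward (chr2:174760369-174760618) and Nlrc3 on the reverse strand (chr16:3976633-3976882).
Acta1: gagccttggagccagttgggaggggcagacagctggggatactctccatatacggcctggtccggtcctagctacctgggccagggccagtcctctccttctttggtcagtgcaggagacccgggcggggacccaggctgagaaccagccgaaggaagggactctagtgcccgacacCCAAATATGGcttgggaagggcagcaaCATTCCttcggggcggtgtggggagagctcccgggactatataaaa
Ankrd1: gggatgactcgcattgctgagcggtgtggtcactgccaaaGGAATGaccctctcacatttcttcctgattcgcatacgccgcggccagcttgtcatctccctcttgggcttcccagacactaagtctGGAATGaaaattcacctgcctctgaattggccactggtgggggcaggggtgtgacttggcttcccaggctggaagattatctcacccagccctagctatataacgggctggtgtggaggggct
Nppa: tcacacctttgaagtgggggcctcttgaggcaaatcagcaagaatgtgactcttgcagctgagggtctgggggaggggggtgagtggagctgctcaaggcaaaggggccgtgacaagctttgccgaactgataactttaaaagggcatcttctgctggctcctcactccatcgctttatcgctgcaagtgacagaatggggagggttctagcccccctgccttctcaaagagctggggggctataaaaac
Edn3: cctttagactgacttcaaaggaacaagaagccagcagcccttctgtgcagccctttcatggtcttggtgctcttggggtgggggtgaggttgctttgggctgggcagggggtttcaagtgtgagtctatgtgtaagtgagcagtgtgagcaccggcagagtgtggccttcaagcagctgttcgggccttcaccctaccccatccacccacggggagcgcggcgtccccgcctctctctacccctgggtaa
Nlrc3: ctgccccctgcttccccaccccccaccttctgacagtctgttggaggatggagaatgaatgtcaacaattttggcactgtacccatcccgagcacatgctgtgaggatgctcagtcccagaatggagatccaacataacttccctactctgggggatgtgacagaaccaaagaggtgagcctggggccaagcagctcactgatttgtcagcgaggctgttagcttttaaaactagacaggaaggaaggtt
Acta1 held 1 CATTCC and 1 CArG box, Ankrd1 held 2 CATTCC on the other strand, and the remaining 3 held neither motif in this window. CATTCC was found before 15.9% of 246 genes that rose without overlap, 19.5% of 282 that fell and 13.1% of 10447 genes tested with a promoter entry. The CArG box was found before 2.44%, 1.77% and 1.42% of them. Over all 27025 genes with a promoter entry the shares were 14.4% for CATTCC and 1.62% for the CArG box. A match describes the letters and does not show binding.

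Of the list of fetal sarcomere genes and natriuretic peptides, 18 were tested. Of these 5 rose and 3 fell (3.84% and 4.76% of all genes), with 4 and 3 free of overlap in both (2.21% and 2.61%). The counts were 3 and 1 without control sham replicate 2 or control TAC replicates 1 or 2, and 3 and 2 without control sham replicate 3. The count that fell was 2 without control sham replicate 1, control TAC replicate 3, knockout sham replicate 1 or knockout TAC replicate 2, and 2 after detrending. The rise of Acta1, the actin of skeletal muscle that the fetal heart also uses (chr8:123891769-123894751), was among the largest. It was at 2037, 3909 and 1789 in control sham, 49822, 40026 and 36536 in control TAC, 5095, 4701 and 5397 in knockout sham and 24979, 24992 and 9170.0 in knockout TAC libraries. All TAC libraries were above all sham libraries, and the change was 2.96 (SE 0.44, adjusted p = 0.00674), with 4.11 in controls and 1.82 in knockouts. Nppa, the atrial natriuretic peptide (chr4:148000722-148002079), was at 218, 553 and 674 in control sham, 2286, 5749 and 2651 in control TAC, 749, 812 and 777 in knockout sham and 1848, 1779 and 1182 in knockout TAC libraries. Its groups did not overlap in either genotype and the change was 1.96 (SE 0.41, adjusted p = 0.0218), with 2.91 in controls and 1.01 in knockouts. With no filter on low values its adjusted p was 0.0505.

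Nppb, the neighbouring gene for the brain natriuretic peptide (chr4:147985788-147987205), was at 1154, 1908 and 3436 in control sham, 5021, 11452 and 4536 in control TAC, 4389, 4893 and 4969 in knockout sham and 7633, 9318 and 3313 in knockout TAC libraries. In knockouts TAC replicate 3 lay below all 3 sham libraries, and the change of 1.04 did not pass by limma (adjusted p = 0.109, and 0.026 without that library), while it passed by DESeq2 (adjusted p = 0.0458). Mybpc2, the fast skeletal form of myosin-binding protein C (chr7:44501699-44524656), was at 205, 265 and 215 in control sham, 579.6, 656 and 1037 in control TAC, 337, 260.0 and 289 in knockout sham and 564, 551 and 543 in knockout TAC libraries. Its 3 knockout TAC libraries lay close together and above every sham library, and the change was 1.30 (SE 0.16, adjusted p = 0.00136), with 1.69 in controls and 0.91 in knockouts.

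Myh7, the slow myosin heavy chain of the fetal ventricle, rose by 2.07 (adjusted p = 0.0285), with 3.50 in controls and 0.64 in knockouts. This call ended without control sham replicates 2 or 3 or control TAC replicates 1 or 2, by voom (adjusted p = 0.0518) and with no filter on low values (adjusted p = 0.0704). Its adult partner Myh6 changed by -0.13 (adjusted p = 0.531). Myl4, the atrial light chain, passed with 2.59 in controls and 0.19 in knockouts, where the knockout libraries overlapped, and its call ended without any 1 of the 6 control libraries.

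Tnnt1, slow skeletal troponin T, and Tnni3, the adult cardiac troponin I, lie side by side (chr7:4504570-4516382 and chr7:4518305-4524229) and both fell. Tnnt1 was at 136, 191 and 183 in control sham, 63.8, 44.3 and 66.2 in control TAC, 177, 201 and 190.0 in knockout sham and 176, 124 and 169 in knockout TAC libraries. It fell by 0.91 on the log2 scale (adjusted p = 0.0181), with -1.54 in controls and -0.29 in knockouts. Tnni3 fell by 0.59 (adjusted p = 0.0215), a call that ended without control sham replicate 2 or any control TAC library. Acta2, the smooth muscle actin, changed by -0.78 (adjusted p = 0.0384, and 0.0593 after detrending), and its call ended without any of 7 libraries, the 3 control sham libraries, control TAC replicates 1 and 2, knockout sham replicate 1 and knockout TAC replicate 2.

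Calcineurin is a phosphatase that responds to calcium and drives growth genes through NFAT factors. Of 34 genes on the list of calcineurin and hypertrophic signals, 4 rose and 2 fell (3.84% and 4.76% of all genes). The count that rose was 2 by voom, 1 with no filter on low values, 1 without any control sham library or control TAC replicate 1 and 2 without knockout sham replicate 1. Beside Edn3, these were Gdf15, Rcan1 and Fgf6 among those that rose, and Adra1b and Fgf16 among those that fell. Rcan1, an inhibitor of calcineurin that is itself an NFAT target (chr16:92391953-92470867), was at 1246, 1272 and 1117 in control sham, 4532, 7786 and 2287 in control TAC, 1411, 1566 and 1561 in knockout sham and 2716, 2500.0 and 1801 in knockout TAC libraries. It rose by 1.22 (adjusted p = 0.0252), with 1.84 in controls and 0.61 in knockouts, and the call ended without any control sham library or control TAC replicate 1.

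Adra1b, the alpha-1B adrenergic receptor through which noradrenaline promotes growth of heart muscle (chr11:43774606-43901210), was at 597, 418 and 393 in control sham, 354, 175 and 269 in control TAC, 628, 604 and 515 in knockout sham and 358, 316 and 368 in knockout TAC libraries. The groups were separate in each genotype, and the change was -0.80 (SE 0.15, adjusted p = 0.00808), almost equal with -0.85 in controls and -0.74 in knockouts, a difference of 0.11 (95% interval -0.53 to 0.74). Gdf15, a stress hormone of the TGF-beta family, was at 12.8, 29.4 and 25.4 in control sham, 136, 339 and 35.4 in control TAC, 9.16, 7.30 and 31.7 in knockout sham and 39.6, 42.1 and 37.1 in knockout TAC libraries. It rose by 1.98 (adjusted p = 0.0274), but the call ended without any of 6 libraries, the 3 control sham libraries, knockout sham replicates 1 and 2 and control TAC replicate 1. Fgf6 and Fgf16, growth factors, passed with changes of 2.50 and -0.56 (adjusted p = 0.0357 and 0.0386) while their libraries overlapped in a genotype. The Fgf6 call ended without any control library or knockout sham replicate 1, and the Fgf16 call without any of 9 libraries, which were all but control sham replicate 3, knockout sham replicate 3 and knockout TAC replicate 3.

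On the list of extracellular matrix genes more members were higher without overlap in controls than in knockouts. Of 47 matricellular, proteoglycan and matrix enzyme genes 18 rose and 0 fell over both genotypes (3.84% and 4.76% of all genes). In controls 34 were higher without overlap, against 17.7% of all genes, and in knockouts 9 were, against 8.31%. Free of overlap in both genotypes were 6, namely Postn, Aspn, Bgn, P4ha1, Ccn1 and Adamtsl2. The count of 18 was 8 to 11 without any 1 of the 6 control libraries.

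Postn, periostin of activated fibroblasts (chr3:54361109-54391037), was at 469, 572 and 352 in control sham, 2376, 2878 and 2546 in control TAC, 509.7, 367 and 348 in knockout sham and 886, 1015 and 529 in knockout TAC libraries. All TAC libraries of a genotype were above its sham libraries, by only a small margin in knockout TAC replicate 3, and the change was 1.73 (SE 0.28, adjusted p = 0.00673), with 2.51 in controls and 0.95 in knockouts. Aspn, the small proteoglycan asporin (chr13:49544443-49567565), was at 264, 244 and 136 in control sham, 406, 456 and 439 in control TAC, 189, 198 and 166 in knockout sham and 404, 436 and 258 in knockout TAC libraries. Knockout TAC replicate 3 was the lowest TAC library and lay below 1 control sham library, and the change was 1.01 (SE 0.16, adjusted p = 0.00415), with 1.07 in controls and 0.95 in knockouts and a difference of -0.11 (95% interval -0.80 to 0.57). Bgn, biglycan, rose by 0.76 (adjusted p = 0.00296), with 1.01 in controls and 0.50 in knockouts.

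P4ha1, a collagen prolyl hydroxylase, was at 664, 754 and 595 in control sham, 1157, 1269 and 777 in control TAC, 465, 514 and 555 in knockout sham and 742, 724 and 771 in knockout TAC libraries. It rose by 0.60 (adjusted p = 0.00981), with 0.64 in controls and 0.55 in knockouts. Adamtsl2, a secreted protein that binds fibrillin and latent TGF-beta, rose by 1.47 (adjusted p = 0.0115). Ccn1, a matricellular protein induced by stretch, rose by 0.67 (adjusted p = 0.0258), a call that ended without any control sham library or control TAC replicates 1 or 2. Timp1, an inhibitor of matrix proteases, and Spp1, osteopontin, passed with changes of 1.26 and 1.93 (adjusted p = 0.0244 and 0.0328), with overlap in knockouts. The Timp1 call ended without control TAC replicates 2 or 3, and that of Spp1 without any 1 control library. Ccn2, connective tissue growth factor, did not pass (1.21, adjusted p = 0.111).

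Of 22 collagens 6 rose and 0 fell (3.84% and 4.76% of all genes), of which Col8a1 and Col4a3 were free of overlap in both genotypes (2.21% of all genes). Col8a1, a short-chain collagen, rose by 1.45 (adjusted p = 0.0115), with 2.26 in controls and 0.65 in knockouts. Col4a3, a basement membrane chain, rose by 0.93 (adjusted p = 0.0239), and its call ended without control sham replicate 2, knockout sham replicate 1 or control TAC replicates 1 or 2. The fibrillar Col1a1 and Col3a1 gave 0.11 and 0.21 (adjusted p = 0.602 and 0.319). The count of 6 was 1 or 2 without control sham replicate 2 or any control TAC library, 3 without control sham replicate 1 or knockout sham replicate 1, and 4 in 3 further fits, which left out control sham replicate 3, knockout sham replicate 2 or knockout TAC replicate 2. After detrending it was 4.

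TGF-beta ligands drive fibroblasts to make matrix. Of 29 genes of this pathway 7 rose and 1 fell (3.84% and 4.76% of all genes). Tgfb2, a ligand (chr1:186622792-186705989), was at 115, 115 and 93.3 in control sham, 274, 385 and 378 in control TAC, 95.6, 106 and 101 in knockout sham and 130.4, 161 and 141 in knockout TAC libraries. It rose by 1.08 (adjusted p = 0.00593), with 1.66 in controls and 0.50 in knockouts. The ligand Tgfb3 rose by 0.49 (adjusted p = 0.025), nearly alike with 0.46 in controls and 0.52 in knockouts, a call that ended without control sham replicates 1 or 2 or control TAC replicate 2.

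Fstl3, which binds and blocks activins, rose by 1.31 (adjusted p = 0.00906), and Inhba, the activin A subunit, by 1.32 (adjusted p = 0.0168), the latter with overlap in knockouts. Acvr2a, an activin receptor, rose by 0.51 (adjusted p = 0.0352, and 0.247 after detrending). The call for Acvr2a ended without control sham replicate 2, knockout sham replicate 1 or any control TAC library. Ltbp1, a latent TGF-beta binding protein, changed by -0.36 (adjusted p = 0.0484), a call that ended in every fit that left out a library except that without control sham replicate 3.

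Fatty acids are the main fuel of the adult ventricle. Of 40 genes of fatty acid oxidation 13 fell and 0 rose (4.76% and 3.84% of all genes). Free of overlap in both genotypes were 8 of the 13, against 2.61% of all genes. Lower levels without overlap were seen for 16 of the 40 in controls (17.7% of all genes) and for 16 in knockouts (8.87% of all genes). The median change of the list was -0.30 in controls and -0.19 in knockouts. The count of 13 was 7 without control TAC replicate 2 and 9 to 17 without any other library.

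Ech1, an isomerase that handles unsaturated fatty acids (chr7:28825217-28832247), was at 24852, 25375 and 28842 in control sham, 11532, 11277 and 12212 in control TAC, 32674, 26465 and 24283 in knockout sham and 22757, 21908 and 21133 in knockout TAC libraries. It fell by 0.75 on the log2 scale (adjusted p = 0.00836), with -1.17 in controls and -0.33 in knockouts. Acot1, a thioesterase that frees fatty acids from their CoA esters, was at 92.7, 86.4 and 111 in control sham, 49.7, 21.6 and 49.4 in control TAC, 218, 123 and 106 in knockout sham and 100.4, 51.02 and 65.4 in knockout TAC libraries. It changed by -1.17 (SE 0.23, adjusted p = 0.0111), with -1.33 in controls and -1.02 in knockouts, and since its sequence is close to that of Acot2 the counting may split reads between them. Etfb, which passes electrons from the acyl-CoA dehydrogenases, changed by -0.91 (adjusted p = 0.0111), with -1.40 in controls and -0.42 in knockouts.

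Plin5, which ties lipid droplets to mitochondria, changed by -0.59 (adjusted p = 0.00637), and Acaa2, the last thiolase of the cycle, by -0.71 (adjusted p = 0.00695). Mlycd and Cpt2, which regulate and complete the entry of fatty acids into mitochondria, changed by -0.47 and -0.43 (adjusted p = 0.0137 and 0.0218). The Cpt2 call ended without control sham replicate 2, knockout sham replicate 1 or control TAC replicate 2. Esrra, a nuclear receptor that drives these genes, changed by -0.36 (adjusted p = 0.0212), a call that ended without control TAC replicate 2. After detrending the adjusted p of Plin5 was 0.0524 and that of Mlycd 0.145.

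Some genes often followed in this setting did not pass. Cpt1b, the muscle form of the enzyme that lets fatty acids into mitochondria, gave 0.02 (adjusted p = 0.94), Pdk4, which blocks pyruvate entry, 0.02 (adjusted p = 0.961), and Ppargc1a, a coactivator of mitochondrial genes, 0.42 (adjusted p = 0.317). The last had 1.08 in controls and -0.24 in knockouts. Of 28 genes of the TCA cycle and pyruvate entry 5 fell and 0 rose (4.76% and 3.84% of all genes). Of the 5, Mdh2 and Pdk2 were free of overlap in both genotypes (2.61% of all genes). Their changes were -0.35 and -0.40 (adjusted p = 0.0457 and 0.0234), and both calls ended without control sham replicates 1 or 2 or any control TAC library, that of Mdh2 also without knockout sham replicate 1 or knockout TAC replicates 1 or 3. The count of 5 was 0 without those 5 control libraries and 1 without knockout sham replicate 1 (9 at an unadjusted p below 0.05 with all libraries, and 5 by edgeR and 6 by DESeq2). With replicate number as a block it was 2.

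Of 24 genes of glucose uptake and glycolysis 7 fell and 1 rose (4.76% and 3.84% of all genes), with 6 and 1 free of overlap (2.61% and 2.21%). The 1 that rose was Pfkp, the platelet form of phosphofructokinase, with 0.69 (adjusted p = 0.014, and 0.0607 after detrending), 0.95 in controls and 0.42 in knockouts. Pfkfb1, which sets the level of the phosphofructokinase activator, was at 238, 139 and 187 in control sham, 135, 42.2 and 85.8 in control TAC, 236, 174 and 179 in knockout sham and 106, 75.4 and 144 in knockout TAC libraries. It changed by -1.04 (adjusted p = 0.0203). Eno3, the muscle enolase, changed by -0.52 (adjusted p = 0.0168). The count of 7 was 2 to 4 without control sham replicates 1 or 2, knockout sham replicates 1 or 2, any control TAC library or knockout TAC replicate 1, and 3 after detrending.

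Nuclear genes of the respiratory chain had a more negative median change in controls than in knockouts, a contrast that was not tested for the list. Of 74 such genes 34 fell and 0 rose over both genotypes (4.76% and 3.84% of all genes). But 68 were lower without overlap in controls (17.7% of all genes) and 7 in knockouts (8.87%), and 5 of the 34 in both (2.61%). After detrending 66 were lower without overlap in controls and 23 in knockouts, and 19 of 35 that passed in both. Without knockout sham replicate 3 or knockout TAC replicate 2 the count in knockouts was 18 or 19, and 15 or 16 of those that passed were lower without overlap in both. The median was -0.74 in controls and -0.12 in knockouts, and 64 of the 74 were below 0 in both. Atp5d, a subunit of ATP synthase (chr10:80138632-80145818), was at 9379, 10812 and 13900.5 in control sham, 5825, 5539.6 and 5609.7 in control TAC, 11895, 10875 and 10018 in knockout sham and 9117, 9427 and 8428 in knockout TAC libraries. It fell by 0.63 (adjusted p = 0.0137). Ndufs7 and Ndufv1 of complex I changed by -0.62 and -0.49 (adjusted p = 0.0173 and 0.0192, the latter not without control TAC replicate 2).

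The count of 34 was 2 without control TAC replicate 2, 4 without either of the other control TAC libraries, 3 and 12 without control sham replicates 2 and 1, 12 without knockout TAC replicate 3 and 7 on leaving out knockout sham replicate 1. With replicate number as a block it was 13. The 7 mitochondrially encoded genes tested gave 0 calls by limma, edgeR and DESeq2 and 2 at an unadjusted p below 0.05, while all 7 were higher without overlap in knockouts and 0 in controls. After detrending 0 of the 7 were higher without overlap in either genotype. Mitochondrial reads are the part of the library that was larger in knockout TAC, and their part in the other values was not tested.

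Potassium channels repolarise the heart muscle cell. Of 29 potassium, sodium and pacemaker channel genes 5 fell and 0 rose (4.76% and 3.84% of all genes). Lower without overlap were 12 in knockouts (8.87% of all genes) against 7 in controls (17.7%). Kcnip2, the partner of the fast outward potassium channel (chr19:45791839-45816061), was at 2019, 2270.0 and 2111 in control sham, 1402, 1475 and 1823 in control TAC, 2461, 2522 and 2395 in knockout sham and 1725, 1789 and 1964 in knockout TAC libraries. The change was -0.44 (SE 0.09, adjusted p = 0.0127) and almost equal with -0.45 in controls and -0.43 in knockouts, a difference of 0.02 (95% interval -0.35 to 0.40). Kcnh2, which carries the rapid delayed rectifier current (chr5:24319589-24351604), was at 1264, 1025 and 738 in control sham, 601, 363 and 643 in control TAC, 1114, 1035 and 894 in knockout sham and 565, 592 and 786 in knockout TAC libraries. It changed by -0.79 (SE 0.16, adjusted p = 0.0111), with -0.92 in controls and -0.66 in knockouts, and the adjusted p was 0.0882 after detrending.

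Gja5, a connexin of the atrium and the conduction system, changed by -0.62 (adjusted p = 0.0255), and this call ended without control sham replicates 1 or 2 or any control TAC library. The count of 5 was 2 without control sham replicates 1 or 2 or control TAC replicates 2 or 3, 3 without control TAC replicate 1, and 3 after detrending. Of 25 genes of calcium cycling 2 rose and 0 fell (3.84% and 4.76% of all genes), while after detrending 0 rose and 1 fell. Asph, which holds the junctional proteins of the calcium store, rose by 0.44 (adjusted p = 0.0399, and 0.227 after detrending), and the call ended without any of 6 libraries, control sham replicate 2, knockout sham replicate 1, the 3 control TAC libraries and knockout TAC replicate 1. Sln, sarcolipin, was at 1.07, 0.949 and 1.70 in control sham and 24.9, 40.2 and 69.9 in control TAC normalized reads, and was listed at 0 in 5 of 6 knockout libraries; its call ended without any control library, knockout sham replicate 1 or knockout TAC replicate 1. Atp2a2, the calcium pump, gave -0.04 (adjusted p = 0.894).

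The counts on lists of stress and defence stand against 3.84% of all genes that rose and 2.21% that rose without overlap. Of 42 interferon response genes 3 rose, all without overlap, and 0 fell. Beside Nlrc3 these were Ifit2, which blocks translation of foreign RNA, and Trim30a, a regulator of innate signalling. Ifit2 was at 139, 169 and 135 in control sham, 298, 197 and 236 in control TAC, 130.2, 124 and 152 in knockout sham and 298, 211 and 159 in knockout TAC libraries. It changed by 0.69 (SE 0.15, adjusted p = 0.0142), with 0.71 in controls and 0.67 in knockouts, and Trim30a by 0.59 (SE 0.13, adjusted p = 0.0179), with 0.56 in controls and 0.61 in knockouts. After detrending their adjusted p-values were 0.0559 and 0.146. Over all 42 genes the median change was 0.005 in controls and 0.35 in knockouts. Changes were above 0 for 21 in controls and 40 in knockouts. Higher without overlap were 5 in controls (17.7% of all genes) and 8 in knockouts (8.31%), and lower 4 (17.7%) and 0 (8.87%). This contrast was not tested for the list.

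Of 19 genes of the integrated stress response and serine synthesis 3 rose and 0 fell. They were Gdf15, Mthfd2, a mitochondrial folate enzyme, with 0.77 in controls and 0.69 in knockouts (adjusted p = 0.0212 over both), and Nupr1, a stress-induced nuclear protein, with 0.85 in controls and 0.46 in knockouts (adjusted p = 0.0232). The count of 3 was 1 without control TAC replicates 1 or 2. Of 22 p53 targets Gdf15 and Eda2r rose. Eda2r, a receptor of the tumour necrosis factor family, was at 42.6, 37.98 and 44.9 in control sham, 54.1, 74.2 and 60.6 in control TAC, 37.6, 21.9 and 33.5 in knockout sham and 64.7, 51.02 and 70.9 in knockout TAC libraries. It rose by 0.79 (adjusted p = 0.0203, and 0.131 after detrending), with 0.57 in controls and 1.00 in knockouts. Cdkn1a, the p53 target next to Trp53cor1, gave -0.23 (adjusted p = 0.75).

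Of 22 immediate early genes Myc passed by limma, with 1.10 (adjusted p = 0.0196), and 3 genes did by DESeq2. Control TAC replicate 3 stood apart in this list, whose summed level was 13492, 18372 and 4667 normalized reads in control TAC and 6229.7 to 9217 in control sham. Of the 22 genes 1 was higher without overlap in controls, against 17.7% of all genes. Once that library was left out 15 were so, against 23.6% of all genes, and 2 then passed. Of 29 cell cycle genes Ccnd2, cyclin D2, rose by 0.80 (adjusted p = 0.0123), and Cdkn1c, a cell cycle inhibitor, changed by -0.69 (adjusted p = 0.0396), a call that ended without any 1 of the 6 control libraries. The calls of Mthfd2 and Eda2r ended without control TAC replicate 2, and those of Nupr1 and Myc without control TAC replicates 1 or 2. Of 17 beta-adrenergic signalling genes 0 passed by limma and 1 by edgeR and by DESeq2, with 4 at an unadjusted p below 0.05. Of 12 long noncoding RNAs 0 passed by limma or edgeR and 2 by DESeq2, with 4 at an unadjusted p below 0.05.

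**Figure D4:**
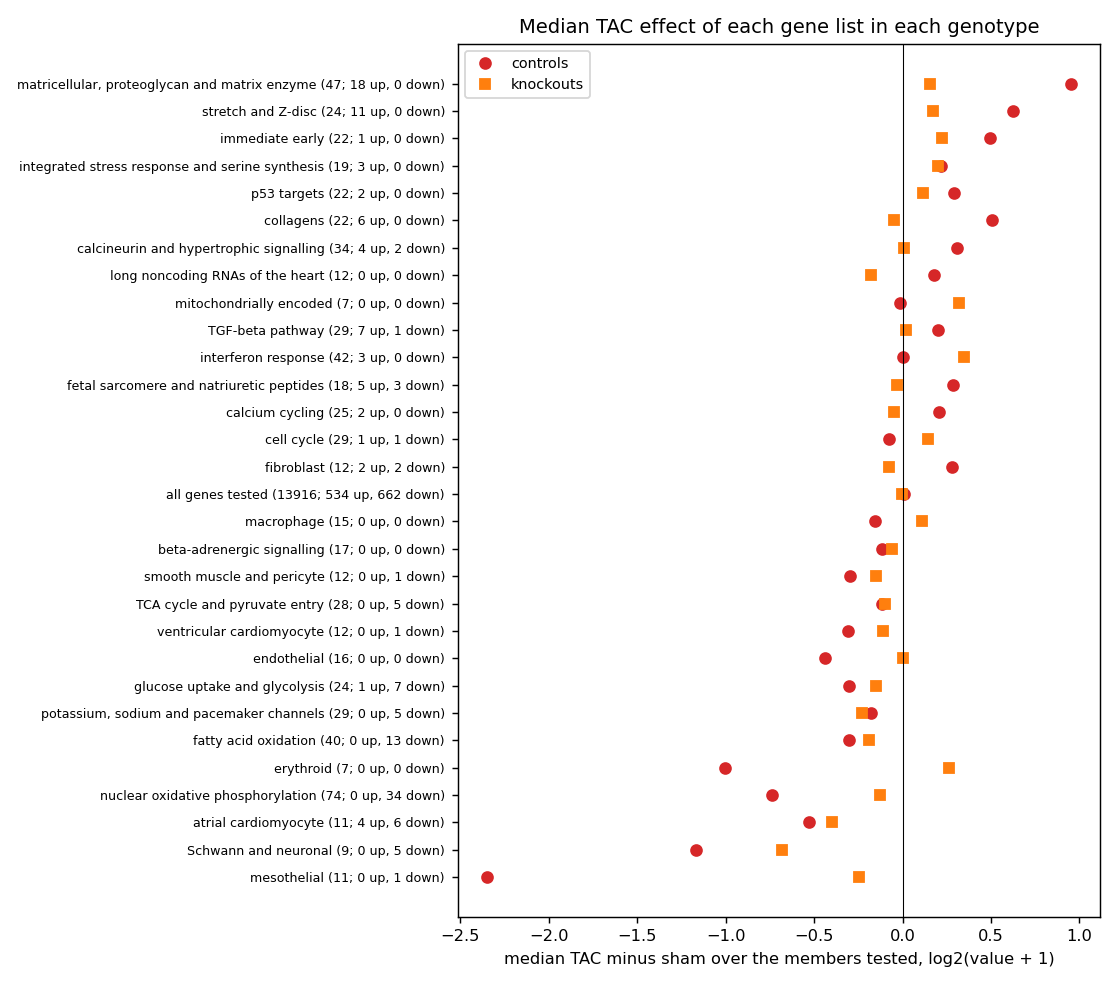
Median change after TAC, log2(value + 1), over the tested members of each gene list with at least 7 members tested, in controls (circles) and knockouts (squares). Brackets give the members tested and those that rose or fell over both genotypes; the medians of stretch and Z-disc genes are 0.63 and 0.17, and those of fatty acid oxidation genes -0.30 and -0.19.

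Markers of other cell types were read for the make-up of the samples. In bulk tissue fewer cells of a type and less RNA per cell cannot be told apart. Of 9 markers of Schwann cells and neurons that were tested 5 fell and 0 rose (4.76% and 3.84% of all genes). Free of overlap in both genotypes were 2 of the 5 (2.61% of all genes). Changes were below 0 in both genotypes for 7 of the 9, and above 0 in controls for 2. The summed level of these markers was lower after TAC without overlap in each genotype. It was 353 to 542 normalized reads in control sham, 170.0 to 307 in control TAC, 383 to 429 in knockout sham and 164 to 288 in knockout TAC libraries. The median change was -1.17 in controls and -0.68 in knockouts.

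Gfra3, a receptor for artemin found on nerves and Schwann cells, was at 60.7, 75.003 and 83.1 in control sham, 22.7, 21.6 and 30.8 in control TAC, 50.9, 60.2 and 55.2 in knockout sham and 33.8, 15.5 and 44.7 in knockout TAC libraries. It changed by -1.22 (SE 0.23, adjusted p = 0.00948), with -1.51 in controls and -0.92 in knockouts. Sox10, the transcription factor that defines Schwann cells, was at 28.8, 20.9 and 57.7 in control sham, 20.5, 8.24 and 13.98 in control TAC, 21.4, 33.8 and 29.9 in knockout sham and 21.2, 4.44 and 11.997 in knockout TAC libraries. It changed by -1.27 (adjusted p = 0.0357, and 0.0948 after detrending), with -1.23 in controls and -1.31 in knockouts. Gpr37l1, Dbh, the enzyme that makes noradrenaline, and Mbp, myelin basic protein, changed by -1.39, -1.22 and -0.86 (adjusted p = 0.0396, 0.0379 and 0.0427), while Snap25 and Th were listed at 0. The count of 5 was 1 to 3 in 11 of 12 fits that left out 1 library, the exception being knockout TAC replicate 1, and 1 after detrending. Single calls among the 5 ended without 7 of the 12 libraries in turn for Gpr37l1, 8 for Dbh and Sox10 and 10 for Mbp.

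Of 11 atrial markers tested 6 fell and 4 rose (4.76% and 3.84% of all genes), so the list did not move as one. Sbk2, Sbk3, Stard10, Tbx5, a transcription factor of the atrium and left ventricle, and Gja5 fell without overlap in both genotypes, and Kcnj3 also passed (-0.47, adjusted p = 0.0436), a call that ended without any library other than control sham replicate 3, knockout sham replicate 3 or knockout TAC replicate 3. Stard10 and Tbx5 changed by -0.87 and -0.83 (adjusted p = 0.00725 and 0.0085). Those that rose were Nppa, Dkk3, Myl4 and Sln, of which Nppa was free of overlap in both. Without any 1 of the 6 control libraries 2 atrial markers rose. The summed level of the atrial markers was 2242 to 2325 in control sham and 3844 to 6951 in control TAC, and 2518 to 2810 and 2636 to 3217 in knockouts.

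Markers of the mesothelium, the cell layer on the outer surface of the heart, summed to 3066 to 5801 in control sham and 1604 to 2940 in control TAC, and to 3301 to 3654 and 2366 to 2630 in knockouts, lower without overlap in each. The median change of the 11 tested was -2.35 in controls and -0.25 in knockouts. Lower without overlap were 6 in controls (17.7% of all genes) and 2 in knockouts (8.87%), while 1 in controls and 3 in knockouts had changes above 0. Of the 11 tested Lrrn4 passed by limma (-2.14, adjusted p = 0.0358), 7 had an unadjusted p below 0.05, and 0 passed by edgeR, 4 by DESeq2, 6 from 4 group means and 3 with replicate number as a block. The Lrrn4 call ended by edgeR and voom, with no filter on low values, after detrending and without any of 7 libraries, the control sham libraries, control TAC replicates 2 and 3, knockout sham replicate 1 and knockout TAC replicate 3. Of 12 fibroblast markers 2 fell and 2 rose (4.76% and 3.84% of all genes). Scara5, a ferritin receptor, and Gsn, gelsolin, fell without overlap in both genotypes, by 0.95 and 0.39 (adjusted p = 0.0147 and 0.0284). Mfap5 and Pi16 rose by 0.87 and 0.43 with overlap in a genotype (adjusted p = 0.019 and 0.0463). The Pi16 call ended without any library other than those of knockout sham replicate 3 and knockout TAC replicate 3. The Gsn call ended without knockout sham replicate 1 or any control TAC library. Of 16 endothelial, 15 macrophage, 7 erythroid, 5 adipocyte, 4 neutrophil and 3 lymphocyte markers tested 0 passed by limma, edgeR or DESeq2, and an unadjusted p below 0.05 was found for 2 endothelial and 1 neutrophil markers. In controls all 16 endothelial and all 7 erythroid markers had changes below 0, against 8 and 0 in knockouts. Summed endothelial levels were 34142 to 51660 in control sham and 29520 to 30436 in control TAC, and 33281 to 35743 and 33289 to 36349 in knockouts. Erythroid levels were 6456 to 7087 and 2711 to 4404 in controls, without overlap, and 4827 to 6210.3 and 3487 to 10890 in knockouts. Smooth muscle and pericyte markers numbered 12, of which Acta2 alone passed, and of the 12 ventricular markers Tnni3 alone. What part the make-up of the samples has in the changes of other genes was not tested.

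**Figure D5:**
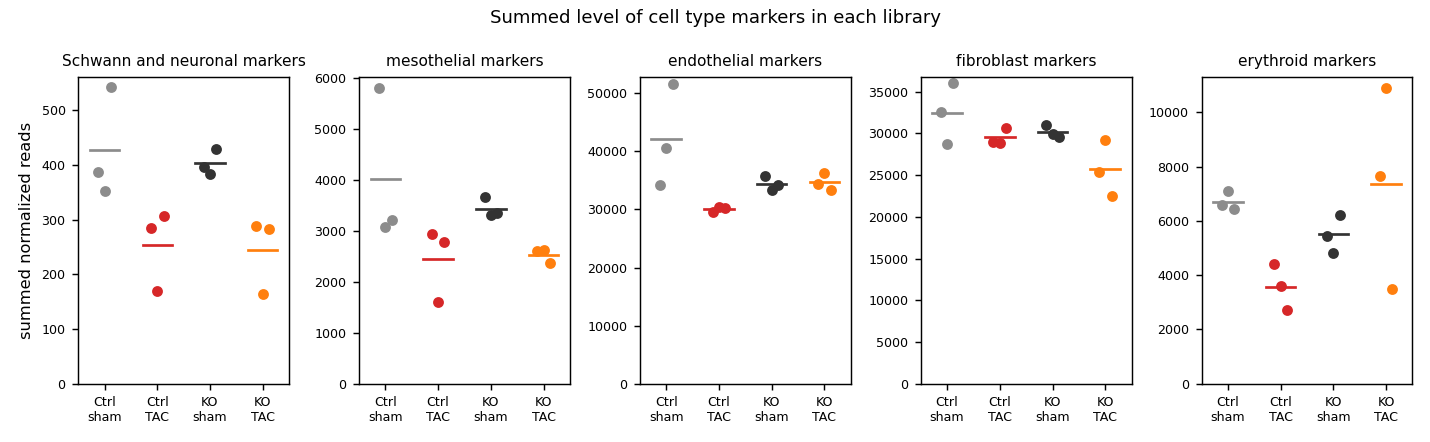
Summed normalized reads of the markers of 5 cell types in each library of control (Ctrl) and knockout (KO) mice, with a line at the mean of 3. The sums for Schwann cell and neuronal and for mesothelial markers are lower after TAC in each genotype without overlap, and the erythroid sums of knockout TAC spread from 3487 to 10890.

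Whether the changes of the 2 genotypes differed was tested as the difference of their TAC effects. That test passed for 43 genes (0.309%), and all 43 had the larger absolute change in controls. In 23 of the 43 the TAC effects were of opposite sign in the genotypes, and 16 of the 43 also passed over both. All 16 were among the 534 that rose, and of the 662 that fell 0 passed the test of the difference by limma, while 2292 genes of all tested had an unadjusted p below 0.05 and 463 passed by DESeq2 and 40 by edgeR. The genes with the smallest p were Thbs4, Comp, Cilp, Ppargc1b and Atp8a2. Thbs4, a thrombospondin of stressed muscle, was at 59.7, 65.5 and 61.9 in control sham, 779, 1177 and 991 in control TAC, 74.3, 51.1 and 50.7 in knockout sham and 121, 90.95 and 70.9 in knockout TAC libraries. It passed over both genotypes (2.30, adjusted p = 0.0271), with a change of 3.94 in controls and 0.66 in knockouts (difference -3.27, adjusted p = 0.000105). Its call over both genotypes ended without any control sham library or control TAC replicates 1 or 2. The number 43 was 755 without control sham replicate 1, 283 without knockout TAC replicate 3, 102 without control sham replicate 3, 14 to 24 without 6 further libraries (control sham replicate 2, knockout sham replicates 2 and 3, control TAC replicate 1 and knockout TAC replicates 1 and 2) and 8 without control TAC replicate 2.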

How the data were processed

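Polyadenylated RNA of 12 left ventricle apex samples was sequenced with a stranded kit, per the labels' protocols. STAR, SAMtools and featureCounts on GRCm38.p6 are named in the submitters' processing notes. Their versions, and how counting treated strand, were not given in the sources used here. Deposited by the authors was 1 table of size-factor-normalized signal for 56350 genes. Each library's values were whole multiples of 1 step, so reads were recovered: 100% of values were whole within 0.01.

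The main test was limma 3.58.1 (R 4.3.3) with robust variance on log2(value + 1), genotype and surgery as terms, over 13916 genes that reached 10 in at least 3 libraries, adjusted by Benjamini-Hochberg at 0.05. Group means, the difference of TAC effects and each genotype alone were fitted likewise. On recovered reads edgeR 4.0.16 (quasi-likelihood) called 1203 genes and DESeq2 1.42.0 called 1916. Alternatives were other scalings, pseudocounts and filters, voom, a replicate block, detrending on length and GC content (a loess fit per library), and leaving out each library.

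Named were the 15 genes per direction with the largest smaller change among those that passed without overlap at a mean of at least 20 (predicted genes left unnamed), up to 4 members per list with the smallest p, a set of heart genes, and the 5 with the smallest p of the difference. Further list members, Bdh1, Cpxm2, Myot, Abra, Ces1d and Emilin2 were chosen after their values were seen. Members and lists were chosen with earlier results of these data known. Gene coordinates are GRCm38.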

Additional observations from a re-analysis of the deposited data

Results flagged for a closer look

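The size of the TAC effect differed between the genotypes, by a test of the difference itself with limma, for 13 of the genes named here, and in all 13 the effect was lower in the knockouts. The differences, knockout minus control on the log2 scale, were -3.31 for Comp, -3.27 for Thbs4, -3.09 for Cilp and -2.55 for Ltbp2, all secreted matrix proteins. Among genes of the contractile apparatus and its sensors they were -2.86 for Myh7, -2.40 for Myl4, -1.95 for Xirp2, -1.57 for Ankrd1 and -1.17 for Enah. The collagens Col8a1 and Col5a2 had -1.61 and -1.02. Ppargc1b, a mitochondrial coactivator, had -1.91 and Atp8a2, a lipid flippase, -1.58.

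Of these 13, Comp changed by 3.32 in controls and 0.01 in knockouts and did not pass over both genotypes by limma (adjusted p = 0.0677), while it passed by edgeR (0.0478), DESeq2 (0.0213), voom (0.0363), the average from 4 group means (0.000122), a filter at 50 (0.0495) and without knockout sham replicate 3 (0.0449) or knockout TAC replicate 1 (0.0376). Cilp, cartilage intermediate layer protein, passed with 3.85 in controls and 0.76 in knockouts (adjusted p = 0.027), and Ltbp2 with 3.42 in controls and 0.86 in knockouts (adjusted p = 0.0173). Ppargc1b had 1.12 in controls and -0.79 in knockouts and Atp8a2 1.86 in controls and 0.28 in knockouts.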

How the results depend on the processing

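The number of genes that passed over both genotypes, 1196, was 1916 with DESeq2 (903 higher, 1013 lower), 2008 as the average of both effects from 4 group means (931 and 1077) and 691 after detrending for length and GC content (281 and 410, with 179 higher genes free of overlap). Asking for 1.5-fold in both genotypes in place of no overlap left 136 higher and 113 lower genes. Leaving out 1 library gave 356 to 1384 genes, 154 to 604 higher and 202 to 780 lower, with 127 to 438 and 175 to 510 free of overlap. Controls alone gave 132 to 1994 and 538 after detrending, knockouts alone 1 to 1331 and 52. The difference between genotypes, 43 genes, gave 463 with DESeq2, 65 with a pseudocount of 5, 124 with no filter, 20 after detrending and 8 to 755 without 1 library. Of 125 named genes past the threshold, 73 kept their call in all 12 fits that left out a library, and 41 lost it in more than 3. With no filter on low values 16 of the 125 lost it, among them Nppa, Phkg1, Myh7, Thbs4, Cilp, Rcan1 and Gdf15. After detrending 29 of the 125 lost it, among them Gsn, Mdh2, Pdk2, Cdkn1c, Fgf6, Fgf16 and Abra. The cause of these shifts was not tested. Signs turned for Ppargc1b with voom (-0.0483), for Pdk4 after detrending (-0.1118), and in fits without 1 library for Pdk4 (-0.0884 to 0.1449), Cpt1b (-0.0606 to 0.0679), Atp2a2 (-0.2182 to 0.0276) and Cdkn1a (-0.4970 to 0.1555); none of these had passed.

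Same-numbered libraries of different groups correlated in their deviations from group means at -0.07 to 0.25 (median 0.03, 3 of 18 above 0.1). Pairs with different numbers were at -0.25 to 0.16 (median -0.0004, 2 of 36 above 0.1). These ranges overlap, so they cannot decide whether the replicate numbers pair the libraries. With the replicate number as a block 986 genes passed, 448 higher and 538 lower. Depth limits low genes such as Lrp8, Sln and Ankrd2, and Trp53cor1 could not be followed.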

Other observations

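Other genes passed in the 6 knockout libraries alone and over both genotypes. Bdh1, the mitochondrial enzyme of ketone body use, was at 2067, 2362 and 1064 in control sham, 3022, 3472 and 3630.4 in control TAC, 1493, 1063 and 1261 in knockout sham and 2436, 2380.2 and 2384 in knockout TAC libraries. Its TAC effect was 0.96 in controls and 0.93 in knockouts (adjusted p = 0.00518 over both). Cpxm2, a secreted carboxypeptidase-like protein, was at 820.4, 1389.9 and 609 in control sham, 1967, 2492 and 1379 in control TAC, 694, 679 and 821 in knockout sham and 1625, 1803 and 1188 in knockout TAC libraries, with an effect of 1.09 in controls and 1.06 in knockouts (adjusted p = 0.00637). Myot, myotilin of the Z-disc, had 1.64 in controls and 0.86 in knockouts and Abra, an actin-binding activator of serum response factor signalling, 1.85 in controls and 0.88 in knockouts (adjusted p = 0.01 and 0.031). The Abra call ended without any control sham library, knockout sham replicate 1 or control TAC replicate 1. It also ended after detrending and with no filter on low values. Emilin2, an elastic-fibre glycoprotein, had -0.91 in controls and -0.82 in knockouts and Ces1d, a carboxylesterase, -1.29 in controls and -0.85 in knockouts (adjusted p = 0.00593 and 0.00275).

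Among the 670 genes that passed without overlap in either genotype, 90 had a knockout change of at least 90% of the control change.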
